A study of Homo sapiens with 6 samples.

Results

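SMADs and the genes that restrain TGF-beta signalling were followed in LX-2 cells, an immortalised line of human hepatic stellate cells, after treatment with IGFBP-7. The set was defined by 10 gene symbols: the receptor-regulated SMADs SMAD2 and SMAD3, the inhibitory SMADs SMAD6 and SMAD7, the membrane adaptor gene PMEPA1, the corepressor genes SKI, SKIL and TGIF1, and the ubiquitin ligase genes SMURF1 and SMURF2. Of these, 9 were among the 16569 genes of the deposited table, and all 9 were among the 11872 genes tested. SMAD2 was not analysed here. The cells, labelled wild type, had been cultured in 2% fetal bovine serum. After 18 h without serum they were given IGFBP-7 at 100 ng/mL, or phosphate-buffered saline (PBS) as the control, and were collected 24 h later. Each group had 3 libraries of poly(A) RNA, and the labels do not say whether these came from separate cultures, so p-values measure only the spread between libraries, which may be technical. IGFBP-7 is a secreted protein related to the insulin-like growth factor binding proteins, and hepatic stellate cells are pericytes of the liver that become scar-forming myofibroblasts when the organ is injured. As every library comes from 1 cell line, no other liver cell and no other stellate line was compared.

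TGF-beta binds a pair of receptor kinases that phosphorylate SMAD2 and SMAD3, which enter the nucleus with SMAD4 and switch target genes on or off. The pathway limits itself: SMAD7, PMEPA1 and SKIL are themselves well-known target genes, and their proteins block receptor-regulated SMADs at the receptor, in the cytoplasm and on DNA. SMURF1 and SMURF2 attach ubiquitin to SMADs and, carried by SMAD7, to the receptor. In liver, this pathway is a main driver of stellate cell activation and scar formation.

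Promoter sequences of 4 of the genes are printed. These are the 3 genes that rose by the widest margins (PMEPA1, SMAD7 and SKIL) and SMAD6, the relative of SMAD7. SMAD6 was chosen because it changed little and its printed window holds the full palindromic SMAD-binding element. Each printed sequence is the 250 bases upstream of the most upstream start site that RefSeq lists. It runs 5′ to 3′ on the gene's own strand, from build GRCh38.p14. The coordinates are those of RefSeq, as no source used here names the build of the authors. Capitals mark every match to the palindrome GTCTAGAC, to CAGAC (a SMAD box with 1 flanking base), to GGCGC (a GC-rich SMAD site) or to TGACTCA (an AP-1 site) on either strand. The windows are chr20:57711473-57711722 (minus strand) for PMEPA1, chr18:48950966-48951215 (minus strand) for SMAD7, chr3:170357465-170357714 (plus strand) for SKIL and chr15:66701986-66702235 (plus strand) for SMAD6.
PMEPA1: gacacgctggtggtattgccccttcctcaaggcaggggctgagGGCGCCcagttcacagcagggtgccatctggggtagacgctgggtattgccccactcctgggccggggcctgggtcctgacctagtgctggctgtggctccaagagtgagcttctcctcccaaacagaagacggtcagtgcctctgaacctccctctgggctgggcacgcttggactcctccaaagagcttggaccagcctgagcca
SMAD7: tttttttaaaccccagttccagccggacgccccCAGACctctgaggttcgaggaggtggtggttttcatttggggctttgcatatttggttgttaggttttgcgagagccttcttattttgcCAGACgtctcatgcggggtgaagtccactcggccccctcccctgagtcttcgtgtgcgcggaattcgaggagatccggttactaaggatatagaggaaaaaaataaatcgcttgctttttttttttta
SKIL: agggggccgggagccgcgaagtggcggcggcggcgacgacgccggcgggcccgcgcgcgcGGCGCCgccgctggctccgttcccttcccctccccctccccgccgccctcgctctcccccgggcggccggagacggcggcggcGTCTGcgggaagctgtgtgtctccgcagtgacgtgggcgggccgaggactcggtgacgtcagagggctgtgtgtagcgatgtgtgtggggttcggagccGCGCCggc
SMAD6: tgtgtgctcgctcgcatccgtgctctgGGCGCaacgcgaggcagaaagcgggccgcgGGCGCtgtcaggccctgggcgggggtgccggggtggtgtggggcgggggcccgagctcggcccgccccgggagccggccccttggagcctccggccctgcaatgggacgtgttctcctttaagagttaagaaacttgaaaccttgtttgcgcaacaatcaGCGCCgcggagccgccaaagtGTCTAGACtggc

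The palindrome stood in the SMAD6 window, with its first base 12 bases upstream of the start site. It was found in 0.182% of the 35116 promoter windows of the same length in RefSeq. The printed SMAD7 window held CAGAC at 217 and 128 bases upstream and no GGCGC, and its GC content was 48.0%, against 78.4% in SKIL and 57.2% over all windows. SKIL held CAGAC on its reverse strand at 107 bases upstream and GGCGC or its reverse complement at 3 places, a pair of them overlapping. Over all 25 windows of the 9 genes with an entry, SMAD2 included, CAGAC stood in 12 windows (48.0%, against 38.0% of all windows), GGCGC in 15 (60.0%, against 44.5%) and TGACTCA in 1, a downstream start of SMAD3 (4.20% of all windows). Some of these windows belong to start sites of the same gene and overlap. SKI had no entry. A match describes letters only. Among the 24 tested genes with the palindrome in a window, 5 were higher with IGFBP-7 (20.8%) and 5 lower (20.8%). Their median log2 change was 0.11. The 459 tested genes with TGACTCA had 126 higher (27.5%) and 174 lower (37.9%), with a median of -0.12. The 4101 with CAGAC had 1346 higher (32.8%) and 1201 lower (29.3%), with a median of 0.04. The 6329 with GGCGC had 2199 higher (34.7%) and 1959 lower (31.0%), with a median of 0.05. The 9185 tested genes with any window had 2991 higher (32.6%) and 2685 lower (29.2%), with a median of 0.04. The shares for CAGAC and GGCGC lay near these. Those for the palindrome and TGACTCA lay further away, and the differences were not tested.

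After IGFBP-7, 8 of the 9 genes rose and 1, SMAD3, fell, at an adjusted p under 0.05 (limma-trend on log2 of normalized counts + 1, Benjamini-Hochberg over all tested genes). Across the tested genes 31.3% rose and 29.2% fell, and 60.6% passed in either direction, so a pass alone is common. The genes of the set had a median log2 change of 0.38, against 0.02 over all tested genes. In size they fell into separate ranges. PMEPA1, SMAD7 and SKIL rose by 2.69 to 6.60 on the log2 scale, SKI by 0.76, and SMURF2, SMURF1, SMAD6 and TGIF1 by 0.28 to 0.38. A rise of at least 1 log2 unit, past the same test, was seen in 3 of the 9 (5.05% of tested genes) and a fall of that size in 1 of the 9 (6.33% of tested genes). In each of the 9 genes the 3 libraries of one group lay wholly above the 3 of the other, which held for 63.5% of tested genes.

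**Figure D1:**
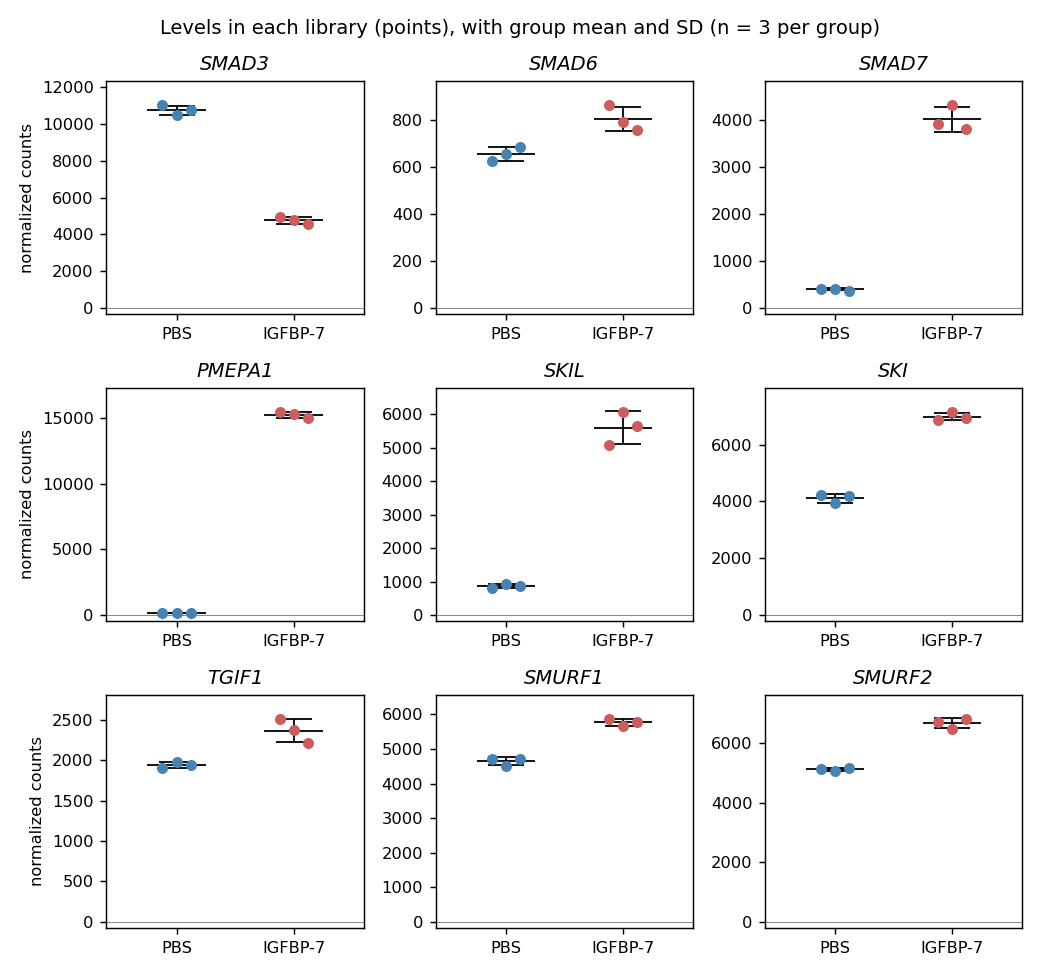
Normalized counts (vertical axes, 0 marked by the grey line) of the 9 genes in each of 3 PBS and 3 IGFBP-7 libraries, with group means and SD. PMEPA1, SMAD7 and SKIL rise 97.3-fold, 9.98-fold and 6.44-fold, and SMAD3 falls from 10740 to 4767. SMAD6, TGIF1, SMURF1 and SMURF2 move by less than 1.5-fold.

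SMAD3, which encodes a DNA-binding effector of the pathway, was at 10998, 10499 and 10723 normalized counts in the PBS libraries and at 4928, 4798 and 4574 with IGFBP-7. The libraries of a group lay close together, and the lowest PBS library was 2.13 times the highest IGFBP-7 library. The group means were 10740 ± 250 and 4767 ± 179 (SD, n = 3 libraries), so SMAD3 was 2.25-fold lower with IGFBP-7. On the log2 scale that is -1.17 ± 0.05 (SE; limma adjusted p = 9.34e-27). Of the tested genes, 9.60% changed by more than SMAD3 in either direction. SMAD3 moved opposite to the pathway's target genes described below. Levels of phosphorylated SMAD3 protein were not measured.

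SMAD7, which encodes the inhibitory SMAD that blocks the TGF-beta receptor, was at 418, 410 and 374 normalized counts in PBS and at 3909, 4300 and 3804 with IGFBP-7. The lowest IGFBP-7 library was 9.10 times the highest PBS library. The group means were 400 ± 23.5 and 4005 ± 261, which is 9.98-fold higher or 3.32 ± 0.08 on the log2 scale (limma adjusted p = 4.43e-38), and 0.505% of tested genes had a higher log2 change. SMAD6, which encodes the inhibitory SMAD best known for blocking BMP signalling, was at 626, 655 and 688 in PBS and at 864, 794 and 759 with IGFBP-7. Its groups were separated by a narrow gap, the lowest IGFBP-7 library being 1.10 times the highest PBS library. With the deposited scaling SMAD6 was higher by 0.29 ± 0.09 on the log2 scale (limma adjusted p = 0.00472). When each library was scaled to its total the change was 0.15 ± 0.09 (limma adjusted p = 0.142), so the rise of SMAD6 rests on the scaling.

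PMEPA1 encodes a membrane protein that holds receptor-regulated SMADs away from the receptor. Its values were 183, 137 and 151 in PBS and 15439, 15308 and 14979 with IGFBP-7. The IGFBP-7 libraries lay close together, while the PBS libraries rested on 139 to 178 sequenced fragments each, and their coefficient of variation was 15.3%, against 1.55% with IGFBP-7. The lowest IGFBP-7 library was 81.7 times the highest PBS library. The log2 change was 6.60 ± 0.08 (limma adjusted p = 4.43e-51), or 97.3-fold. Over the 3 libraries of each group, 47676 fragments with IGFBP-7 stood against 458 in PBS. With the deposited scaling their ratio was 97.4, with an exact 95% binomial interval of 88.8 to 107. That interval covers counting error only. When each library was scaled to its total, the log2 change of PMEPA1 was 6.46 ± 0.08. NKILA, a noncoding RNA gene on the strand opposite PMEPA1 in GENCODE that was picked here after its values were seen, went from 51.4 ± 3.80 to 655 ± 21.8, a log2 change of 3.65 ± 0.16. Whether the counting used strand is not stated in any source at hand, so reads from the stretch that PMEPA1 and NKILA share cannot be assigned to either, and both values are uncertain to that extent. GENCODE also lists genes on the opposite strand that overlap SMAD3 (AC087482.1 and AC012568.1), SMURF1 (the protein-coding TRRAP among them) and SMURF2 (the protein-coding CEP95 among them), so the levels of these 3 genes carry the same uncertainty. On the same strand it lists AC013564.1, typed as sense intronic, over SMAD6 and the pseudogene BOD1P1 over TGIF1. How reads shared with these were counted is not stated either.

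SKIL, which encodes the SnoN corepressor that binds SMADs on DNA, was at 817, 933 and 857 in PBS and at 5101, 6069 and 5659 with IGFBP-7. Every IGFBP-7 library was at least 5.47 times the highest PBS library. SKIL rose 6.44-fold between means of 869 ± 59.1 and 5610 ± 486, or by 2.69 ± 0.07 on the log2 scale (limma adjusted p = 2.21e-36). SKI, the founding relative of SKIL and a corepressor of the same kind, was at 4222, 3928 and 4192 in PBS and at 6883, 7141 and 6935 with IGFBP-7. Its groups did not overlap, and its log2 change was 0.76 ± 0.05 (limma adjusted p = 2.85e-18), or 1.70-fold. TGIF1, which encodes a homeodomain protein that brings histone deacetylases to SMADs, was at 1907, 1977 and 1940 in PBS and at 2511, 2377 and 2215 with IGFBP-7. That is a log2 change of 0.28 ± 0.07 (limma adjusted p = 0.000181), and 0.14 ± 0.06 (limma adjusted p = 0.0467) once libraries were scaled to their totals.

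SMURF1, which encodes a ubiquitin ligase first known for SMAD1 and SMAD5, was at 4716, 4522 and 4719 in PBS and at 5869, 5653 and 5787 with IGFBP-7. SMURF2, whose product is carried to the TGF-beta receptor by SMAD7, was at 5137, 5061 and 5166 in PBS and at 6705, 6484 and 6805 with IGFBP-7. Within each group these were among the tightest values of the set, with coefficients of variation of 1.06% to 2.47%. The log2 changes were 0.31 ± 0.05 for SMURF1 (limma adjusted p = 9.93e-07) and 0.38 ± 0.05 for SMURF2 (limma adjusted p = 6.08e-09). Scaled to library totals, they were 0.17 ± 0.05 (limma adjusted p = 0.00271) and 0.24 ± 0.05 (limma adjusted p = 3.54e-05). GENCODE lists 2 pseudogenes named after SMURF2, and no source at hand says how reads shared with such copies were counted, so the SMURF2 level is uncertain to that extent.

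**Figure D2:**
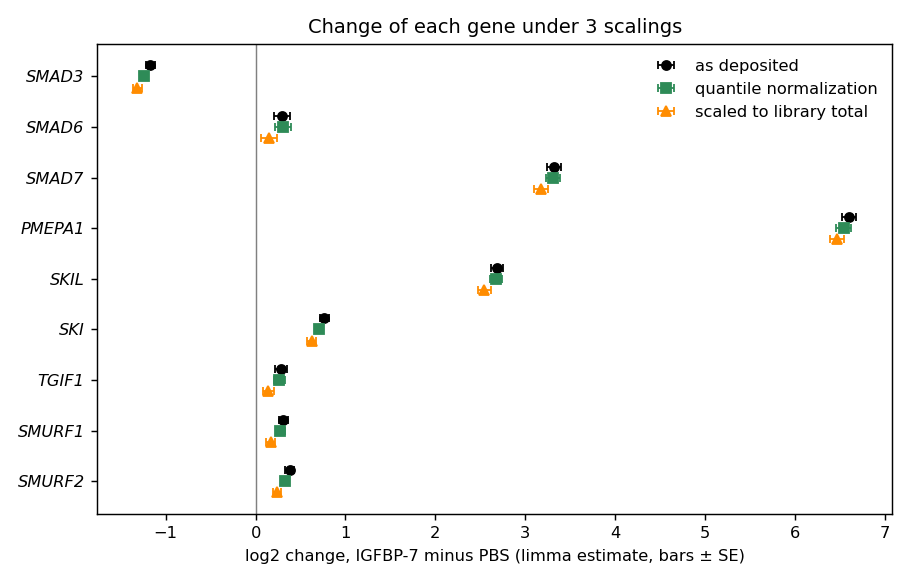
Log2 change of each gene (horizontal axis, IGFBP-7 minus PBS, limma estimate with SE) with the deposited scaling, after quantile normalization and after scaling to the library total. PMEPA1, SMAD7, SKIL, SKI and SMAD3 stay far from 0 under all 3, whereas SMAD6 comes to 0.15 and TGIF1 to 0.14 with scaling to the library total.

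Scaling to the library total lowered the estimates: over all tested genes the median log2 change shifted by -0.14, from 0.02 to -0.12. It changed the split of calls from 3721 higher and 3471 lower to 2435 higher and 4176 lower. Under it 7 of the 9 genes rose and SMAD3 fell. Set against the median gene, the changes of SMAD6, TGIF1, SMURF1 and SMURF2 were therefore 0.26 to 0.36, and 20.3% to 28.2% of tested genes had a higher log2 change than these 4 genes. For SMAD7 and SKIL that share was 0.505% and 0.842%.

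**Figure D3:**
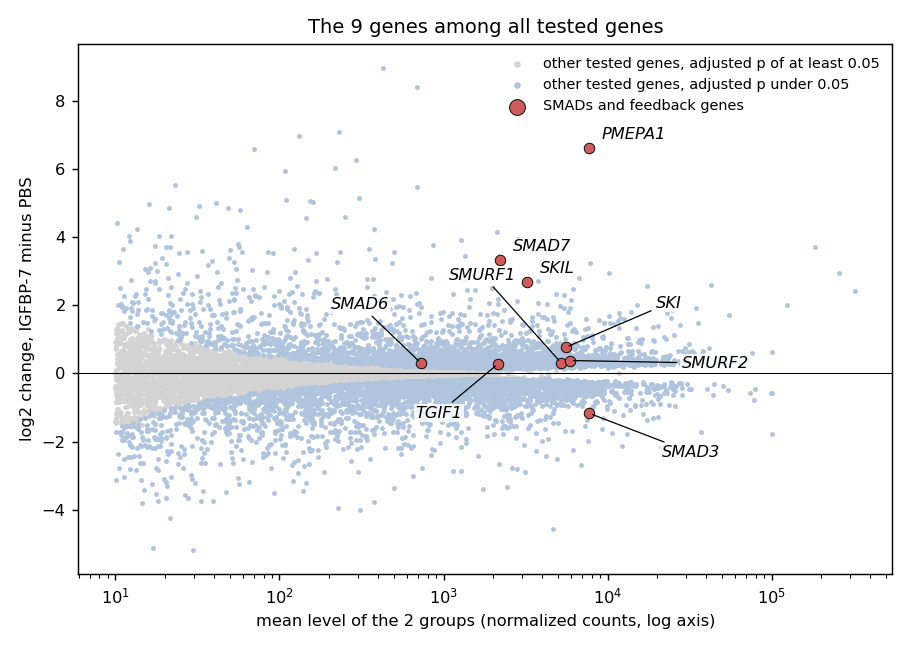
Each tested gene is a point, with the mean level of both groups on the horizontal axis (normalized counts, log axis) and the log2 change, IGFBP-7 minus PBS, on the vertical axis. PMEPA1, SMAD7 and SKIL lie high at 6.60, 3.32 and 2.69, with 0.0337%, 0.505% and 0.842% of tested genes higher than each. SMAD3 lies at -1.17, and the other 5 genes lie at 0.28 to 0.76.

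Closely related genes were compared within each library, where a scaling factor per library and the transcript length do not enter the difference. The log2 ratio of SMAD7 to SMAD6 was higher with IGFBP-7 by 3.02, an 8.13-fold shift, and the ratio of SKIL to SKI by 1.92, a 3.79-fold shift. The ratio of SMURF2 to SMURF1 went from 0.14 ± 0.02 to 0.21 ± 0.02 (mean ± SD, n = 3), a difference of 0.07. In each of these 3 pairs every IGFBP-7 library lay above every PBS library, and the exact two-sided permutation p was 0.1, or 0.1 when adjusted over the 3 pairs, the smallest that 3 libraries against 3 allow. In each pair the shift was larger than the SD between libraries of a group. The ratio of SMAD7 to SMAD3, chosen after the values were seen, was higher by 4.49 log2 units, with a gap of 4.34 between the nearest libraries of the groups. These are SMAD genes that act on opposite sides of the pathway.

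**Figure D4:**
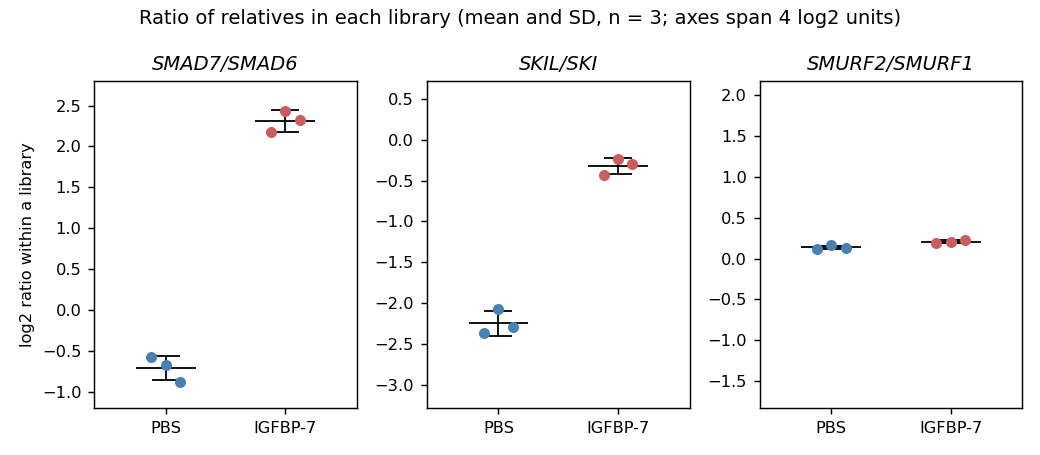
Log2 ratio of normalized counts + 1 between related genes within each library (vertical axes, each spanning 4 log2 units), with group means and SD for 3 PBS and 3 IGFBP-7 libraries. The shift is 3.02 for SMAD7 to SMAD6, 1.92 for SKIL to SKI and 0.07 for SMURF2 to SMURF1.

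Other genes of the pathway were grouped by role. Their counts stand against 31.3% of all tested genes that rose, 29.2% that fell and a median of 0.02. Of the other SMADs, the 3 tested genes passed as higher, 1 of them (SMAD9) narrowly, with a median log2 change of 0.27. SMAD1, an effector of BMP signals, rose by 0.44 ± 0.09 and SMAD5, of the same branch, by 0.27 ± 0.05. Antisense genes named SMAD1-AS1 and SMAD5-AS1 are also in the table, so both values are uncertain for the reason given for PMEPA1. SMAD9, chosen here after its values were seen, was at 0.23 ± 0.10 (limma adjusted p = 0.0469), its groups overlapped, and with scaling to the library total it did not pass (0.09, limma adjusted p = 0.467). The number of other SMADs that rose was 2, in place of 3, also with edgeR, with DESeq2, without the filter, and without PBS replicate 1 or 3 or IGFBP-7 replicate 1 or 2. SMAD4 was not analysed here.

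Among ligands and receptors, 4 of 7 tested genes rose, 3 fell and the median was 0.78. The ligand gene TGFB1 was at 5979 ± 227 and 24164 ± 1215, higher by 2.01 ± 0.05, and INHBA, which encodes a subunit of activin, rose by 2.17 ± 0.07. The coreceptor gene TGFBR3, which encodes betaglycan, fell, with means of 879 ± 40.7 and 237 ± 8.41 and a log2 change of -1.89 ± 0.11, and ACVRL1, a type I receptor gene best known in endothelial cells, was at -0.96 ± 0.19. These named genes passed with a limma adjusted p of at most 1.80e-05. The receptor genes TGFBR1, ENG and ACVR1B were not analysed here.

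Of 11 tested genes (14 listed) for receptor-level inhibitors, adaptors and SMAD phosphatases, 5 rose, 6 fell and the median was -0.22. LDLRAD4, the structural relative of PMEPA1, rose by 1.31 ± 0.12 between means of 282 ± 22.7 and 703 ± 111 (limma adjusted p = 4.10e-14), and BAMBI, which encodes a decoy receptor, rose by 0.65 ± 0.10. PPP1R15A, which encodes a phosphatase subunit that SMAD7 brings to the receptor, had means of 4177 ± 72.0 and 1756 ± 114, with a log2 change of -1.25 ± 0.06 (limma adjusted p = 7.17e-24). DAB2, which encodes an endocytic adaptor, was at -0.83 ± 0.05. DAB2 and TGFBRAP1, which is on the list too, are known to aid the passage of the signal from receptor to SMADs, so the list is not one of inhibitors alone. The list moved both ways, also with scaling to the library total, where 4 rose and 6 fell.

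Ubiquitin ligases and deubiquitinases other than the SMURF genes moved mostly down, with 1 of 9 tested genes higher, 6 lower and 2 not passing, and a median of -0.18. NEDD4L, which encodes a ligase of the SMURF family that marks activated SMAD2 and SMAD3, had means of 6418 ± 296 and 2869 ± 97.4, a log2 change of -1.16 ± 0.06 (limma adjusted p = 1.56e-24). WWP2 and NEDD4, of the same ligase family, had log2 changes of -0.46 ± 0.06 and -0.32 ± 0.05, and the deubiquitinase gene USP4 one of -0.36 ± 0.05. WWP1, of that family too and chosen here after its values were seen, did not pass, at 0.18 ± 0.08 (limma adjusted p = 0.0532). The single rise was in UCHL5, a deubiquitinase gene chosen here after its values were seen, at 0.29 ± 0.07, and it did not pass with scaling to the library total (0.15, limma adjusted p = 0.0704). In STUB1 and CYLD, chosen here after their values were seen, the groups overlapped although both passed as lower. The number of genes that rose on this list was 3 without PBS replicate 3 and 2 without IGFBP-7 replicate 3. The number that fell was 5, in place of 6, with any 1 library left out.

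Of 26 listed nuclear cofactors of SMADs, 15 were tested. They were split, with 4 of 15 higher, 7 lower and 4 not passing. Their median was 0.02 and turned to -0.12 with scaling to the library total. The median was also under 0 with quantile normalization (-0.0099) and edgeR (-0.0019). Without PBS replicates 1, 2 and 3 in turn it was -0.0341, -0.0865 and -0.0769, and without IGFBP-7 replicates 2 and 3 it was -0.0294 and -0.0903. RUNX1, a transcription factor gene, rose by 1.06 ± 0.05, with means of 4559 ± 108 and 9541 ± 398. The acetyltransferase gene KAT2B, the repressor gene ZEB2 and the transcription factor gene MECOM fell, with log2 changes of -0.85 ± 0.08, -0.81 ± 0.06 and -0.77 ± 0.17. TGIF2, the close relative of TGIF1 and chosen here after its values were seen, was at 0.30 ± 0.08 (limma adjusted p = 0.000724), a value near that of TGIF1, and did not pass with scaling to the library total (limma adjusted p = 0.0684).

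Well-known target genes of TGF-beta all moved in 1 direction: all 22 tested genes of this list rose, with a median of 1.76, and 19 did so with scaling to the library total. NOX4, which encodes an oxidase, was at 10.3, 19.6 and 19.2 in PBS and at 585, 573 and 635 with IGFBP-7, a log2 change of 5.16 ± 0.22. SNAI1, which encodes a repressor of epithelial genes, rose by 3.93 ± 0.10, the matrix gene TGFBI by 3.72 ± 0.04 and the cytokine gene IL11 by 3.23 ± 0.06. SMAD7 at 3.32 and SKIL at 2.69 lay within the range of these targets, and PMEPA1 at 6.60 above it. In CCN2 and ID3, which are on this list, the groups overlapped although both genes passed. Both the target list and the set were drawn up when earlier results of these data were known. Their shared direction and the place of SMAD7, SKIL and PMEPA1 among the targets are therefore descriptions, not an independent test.

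**Figure D5:**
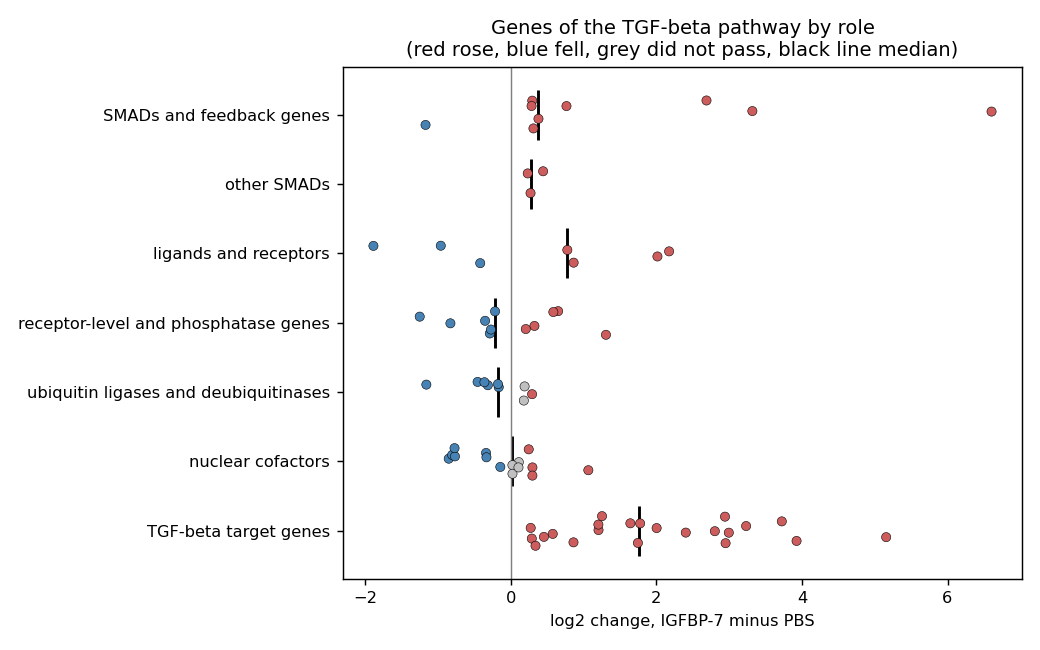
Log2 change (horizontal axis, IGFBP-7 minus PBS) of each tested gene, by role in the TGF-beta pathway, with the median of each row as a black line. Target genes lie to the right of 0 with a median of 1.76, and the ubiquitin ligases and deubiquitinases have a median of -0.18.

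Genes were also ranked by how closely their profile over the 6 libraries followed that of a gene of the set, as the root mean square distance between log2 values centred on the PBS mean. Nearest to SMAD7 was IL11 (0.12), followed by PKNOX2 (0.15) and LRRC15 (0.17). Nearest to SMAD3 were DMTN, OSMR and NEDD4L, each at 0.04. CARMN, TRIML2 and DACT1 were nearest to SKIL, at 0.11 to 0.12. For PMEPA1 the distances were longer: ODAPH, SCN7A and MYOM3 were nearest at 0.42 to 0.60, and these 3 genes averaged 0.712 to 2.38 normalized counts in PBS, at or under the level of 3 fragments (2.54 to 3.20 normalized counts), so their log2 changes depend on the pseudocount. These distances are descriptions over 6 libraries with no test.

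The libraries held 40599380 to 55479940 reads recovered from the normalized values, with 2 reads taken as 1 fragment. Of 14 stellate markers in the table, 13 averaged at least 10 normalized counts. The stellate gene DES was at 0 in the PBS libraries and averaged 1.36 ± 2.36 in the others, and LRAT, GFAP and VIM were not analysed here. The summed stellate list was 65768 to 69737 in PBS and 218588 to 238124 with IGFBP-7, most of it COL1A1. By gene, 6 of these markers rose and 3 fell, among them RELN from 529 ± 44.0 to 71.8 ± 19.7 and LUM from 354 ± 58.5 to 109 ± 9.84. Hepatocyte markers summed to 242 to 291 and 219 to 260, nearly all from SERPINA1 (ALB was at 0.712 and 1.81), and 1 of 7 averaged at least 10. Endothelial markers summed to 2655 to 2777 and 2297 to 2421, with 6 of 8 at 10 or more and most from EGFL7, which fell, while PECAM1 (61.5 and 113) and TEK (138 and 224) rose. Macrophage and leukocyte markers summed to 3286 to 3374 and 1736 to 2020, with 3 of 8 at 10 or more, mainly CD68. Of these, CD68 and CD14 fell, CSF1R rose from 56.5 ± 8.05 to 293 ± 44.3, and PTPRC was at 5.59 and 4.67. Epithelial and cholangiocyte markers summed to 1210 to 1341 and 1634 to 1736, with 2 of 5 at 10 or more (SOX9 and KRT7). CDH1 was at 0 in the PBS libraries and averaged 0.681 in the others. In bulk RNA, more cells with a transcript and more transcript per cell cannot be told apart, and the part of these lists in the changes above was not tested.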

How the data were processed

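RNA of 3 PBS and 3 IGFBP-7 libraries of LX-2 cells was analysed from 1 deposited table. Its values are normalized counts, a signal the authors obtained by dividing read counts by 1 factor per library, per the file headers and the steps between values. The submitters' processing notes name STAR, Subread, featureCounts and DESeq2 and give neither their versions nor their roles. No source used here states the genome build, the annotation or the strand setting. Within each library 100% of values were whole multiples of 1 step, within 0.01 of a step, so read counts were recovered, and 99.6% of the nonzero counts were even. Libraries were grouped by their titles. No pair within a group agreed within sampling noise (chi-square per degree of freedom of fragments over genes at least 5.27), and all 6 were counted.

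The 11872 genes whose 6 values averaged 10 normalized counts or more were compared with limma-trend (limma 3.58.1, R 4.3.3) on log2(normalized count + 1), two-sided, without covariates, at a Benjamini-Hochberg adjusted p under 0.05. A fold change is on that scale and understates the change of low genes. Folds and levels (mean ± SD) are per gene. SE and p-values are from limma, which draws the variance of each gene towards a trend over all genes. An SE can therefore be smaller or larger than the libraries of that gene alone would give. The fit was tested on simulated data with 35 to 40 genes changed at each size and the same dispersion for all genes. It recovered 75% of genes changed by 0.5 on the log2 scale, 91.9% at -1 and 97.5% at 1. Changes under 0.5, as in SMURF1, SMURF2, SMAD6 and TGIF1, were not simulated, nor was a share of changed genes as high as here. Paralog ratios were tested with an exact permutation test over libraries. Each result was recomputed with a pseudocount of 0.5 and 5, no filter and a filter at 100, scaling to the library total, quantile normalization, edgeR 4.0.16 and DESeq2 1.42.0 on recovered reads, a replicate block, and without each library (the paralog ratios without the filters, edgeR, DESeq2 and the block). Promoter windows are RefSeq's, overlaps of genes GENCODE's (release 29, matched by identifier). All genes of the set were named, plus up to 4 genes per list with the widest change among those that passed without overlap of the groups. NKILA, SMAD9, WWP1, UCHL5, STUB1, CYLD, TGIF2 and the single cell type markers were named outside this rule. The genes of the set and the lists were chosen with earlier results of these data known.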

Additional observations from a re-analysis of the deposited data

How the results depend on the processing

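All 9 genes of the set kept their direction under the 15 alternatives, and their calls held in 134 cases, the single exception being SMAD6 with scaling to the library total (0.15). Each of the 3 paralog ratios kept its direction under the alternatives that give a ratio (no filter, the filter at 100, edgeR, DESeq2 and the replicate block were not run for them). With scaling to the library total, 2435 genes were higher, and the median log2 change was -0.1162 over all tested genes, 0.238 for the set, 0.129 for the other SMADs, -0.3585 for receptor-level and phosphatase genes, -0.3184 for ubiquitin ligases and deubiquitinases, -0.1188 for nuclear cofactors and 1.6196 for target genes. It left 0 ubiquitin ligases and deubiquitinases and 2 nuclear cofactors higher. Quantile normalization gave medians of 0.0605 over all tested genes, 0.3247 for the set, -0.2501 for receptor-level and phosphatase genes, -0.2172 for ubiquitin ligases and deubiquitinases and 1.5054 for target genes, and 2 ubiquitin ligases and deubiquitinases higher. A filter at a mean of 100 also gave 2, and a median of 0.0679 over the genes it left. The median over all tested genes was 0.0004 with edgeR and 0.0027 with DESeq2. The cause of these shifts was not tested.

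Leaving out 1 library at a time gave medians of -0.0903 to 0.0175 for nuclear cofactors (-0.0865 and -0.0769 without PBS replicates 2 and 3, -0.0903 without IGFBP-7 replicate 3), -0.2578 to -0.1579 for receptor-level and phosphatase genes and -0.2513 to -0.1682 for ubiquitin ligases and deubiquitinases, of which 1 to 3 were higher. The replicate block gave 3715 genes higher and 3462 lower, against 3721 and 3471, and 8 and 1 in the set. Deviations of same-numbered libraries from their group means correlated at -0.049 to 0.012, and those of differently numbered libraries at -0.028 to 0.072. Correlations this small, from 3 libraries per group, cannot decide whether same-numbered libraries share a culture or a day. The labels do not say so. Depth limits PMEPA1 most, with 139 fragments in its lowest PBS library.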
